A study of Canis lupus familiaris with 81 samples.

Results

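RTS0112944 is 1 of 2010 probes read in tissue of dogs with appendicular osteosarcoma. It was chosen by its share of variance between tumours, the highest of all probes. That choice used its levels in the tumours, so the spread of its levels over tumours and within them, their order and its variance share are described here without a test. Tests are given only for its level against control tissues, between arrays, and beside other probes and measures of the tumours. The files pair no gene with the identifier, and the dog gene table used here holds 0 of the 2010 identifiers, so the gene, its role and its sequence are not given.

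Appendicular osteosarcoma of dogs is a malignant bone tumour of the limbs in which the tumour cells lay down bone matrix. It often spreads to the lung. The GeoMx Digital Spatial Profiler measures RNA in a chosen region of a tissue section. Probes with a DNA tag are hybridised to the section, the tags in the region are released with light and collected, and each tag is counted by sequencing. A probe count therefore stands for a whole region, and fewer cells of a type cannot be told apart from less of the RNA in each cell.

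The tumours came from pet dogs in a clinical trial run by a comparative oncology consortium, and pieces of them were placed on 2 tissue microarrays, here array 1 and array 2. The 81 libraries held 68 tumour regions of 24 tumour numbers, each taken as 1 tumour, 12 regions of kidney, spleen and liver, with 4 regions of each, and 1 library without template. Each array held 2 regions of 10 of the tumours and 1 region of the other 14. The labels used here give no treatment, age or breed, do not say how regions were placed, and do not name the animals of the control tissues, so regions of a tissue are not taken as separate animals; the groups by disease-free interval were not analysed here.

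Total counts per tumour region ran from 17711 to 1069118, with a median of 211967. Kidney regions held 156004 to 396058 counts, spleen regions 118688 to 306639, and liver regions 92126 to 205809. RTS0112944 was listed in 80 libraries, with 21 to 2965 counts in a tumour region (median 278), 980 to 2096 in a kidney region, 159 to 444 in a spleen region and 122 to 268 in a liver region. The library without template held 0 counts of the probe among 74 in all, which allows a share of up to 4.05%. Levels below are log2 CPM, counts scaled to a common library total, after TMM scaling, which sets libraries to a common level over the bulk of probes, with a prior count of 2, and a difference of 1 is a 2-fold difference.

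The probe was read in all 24 tumours and differed between the lowest and the highest by 16.8-fold. The mean over tumours was 10.50 ± 0.99 (SD, n = 24) and the median 10.32. In 7 tumours the level was above 11, in 8 it was between 10 and 11, in 8 between 9 and 10, and in 1 it was below 9. Without the highest tumour the mean was 10.39 ± 0.84 (SD, n = 23) and the range 8.37-fold. The range over all 24 depended on the scaling, with 10.6-fold by the upper quartile and 11.1-fold by library size alone. With every region thinned by 1 random draw to 17711 counts and then scaled by TMM, it was 7.14-fold and tumour 214 was the lowest. Tumour 901 then read 9.82 against 8.99. The prior count of 2 weighs more at that depth, and its part in the narrower range was not tested.

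Tumour 404 was the highest. Its 4 regions read 13.14 and 12.98 on array 1 and 13.35 and 12.76 on array 2, a mean of 13.06 ± 0.25 (SD, n = 4 regions), from 2965, 903, 1548 and 137 counts in that order. All 4 lay above every region of any other tumour. Next came tumour 309, with 11.99 on array 1 and 12.12 on array 2, a mean of 12.05 ± 0.09 (SD, n = 2). The gap of 1.00 between them was the widest between neighbours in the order and came to 4.54 times their pooled SD.

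Tumours 2203 and 1801 followed at 11.75 ± 0.13 (SD, n = 4) and 11.70 ± 0.07 (SD, n = 2), and their regions overlapped. Tumour 2203 read 11.85 and 11.57 on array 1 and 11.76 and 11.82 on array 2, and tumour 1801 read 11.65 and 11.74. The other tumours above 11 were 1701 at 11.32 ± 0.14, 502 at 11.21 ± 0.19 and 1405 at 11.06 ± 0.16. Tumours 502 and 1405 had regions that overlapped.

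The middle of the order had few clear steps. The means were 10.91 in tumour 610, 10.86 in 1001, 10.61 in 2206, 10.47 in 2201, 10.40 in 1002, 10.23 in 701, 10.17 in 2204 and 10.05 in 601. Below 10 they were 9.98 in 706, 9.78 in 501, 9.76 in 204, 9.73 in 1403, 9.54 in 702, 9.54 in 2202, 9.49 in 809 and 9.40 in 214. Of 23 pairs of neighbours in the whole order, 16 had regions that overlapped and 12 had means that differed by less than their pooled SD.

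Tumour 901 was the lowest, with 8.88 on array 1 and 9.10 on array 2, a mean of 8.99 ± 0.16 (SD, n = 2), from 52 and 60 counts. Its gap of 0.41 below tumour 214, which read 9.29 and 9.51, was the second widest in the order. The regions of these tumours did not overlap. The other steps without overlap were below 309 (0.30), 1801 (0.37), 1002 (0.16), 701 (0.065) and 2204 (0.12).

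**Figure D1:**
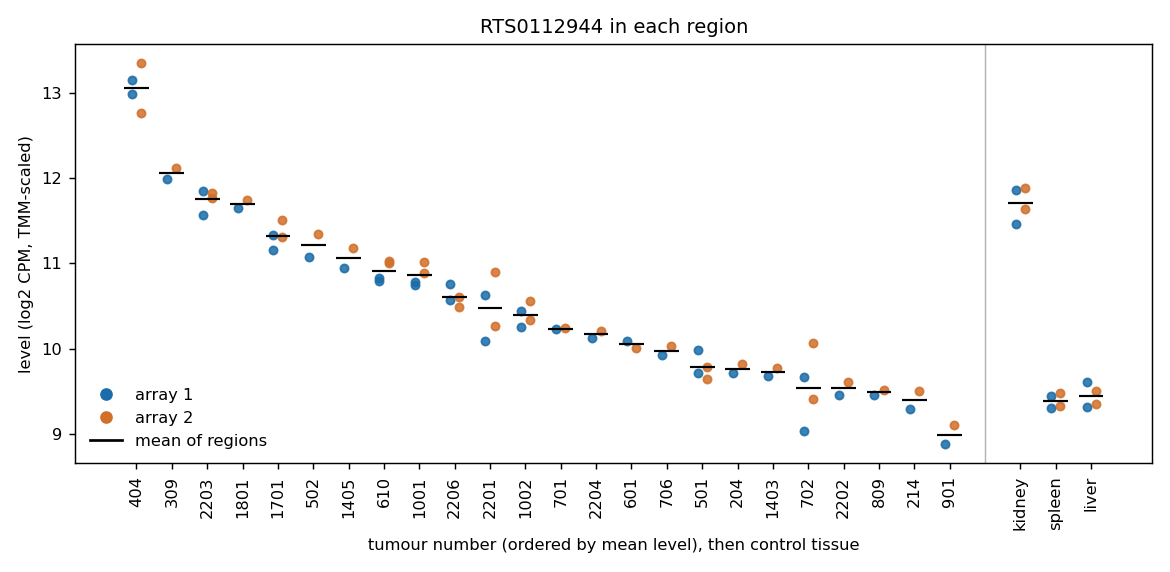
Level of RTS0112944 in each region, in log2 CPM after TMM scaling, with 24 tumours ordered by their mean and then kidney, spleen and liver; points are regions coloured by array and bars are means of the regions. Tumour 404 stands alone at 13.06, tumour 901 lies lowest at 8.99, and the 4 kidney regions lie between 11.47 and 11.88.

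Regions of a tumour lay close together beside this spread. The distance between the highest and the lowest region of a tumour ran from 0.013 in tumour 701 to 1.03 in tumour 702, with a median of 0.225. In the 20 pairs of regions of 1 tumour on 1 array, the gap ran from 0.024 to 0.654, with a median of 0.186. In tumour 702 the 4 regions read 9.03 and 9.67 on array 1 and 9.41 and 10.06 on array 2, an SD of 0.43. In tumour 2201 they read 10.09 and 10.63, then 10.27 and 10.90, an SD of 0.36. In both tumours the regions of 1 array differed by more than the arrays' means did, so the spread there lay mostly among regions of an array.

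The share of variance between tumours, which chose the probe, was 96.8%, against a median of 35.9% over all probes, and the next probe, RTS0112273, had 96.6%. The SD within tumours was 0.180, the lowest of 2010 probes with TMM scaling. Among the 100 probes nearest to it in level, the SD within tumours had a median of 0.344 and was never below 0.193. Its SD between tumours, 0.988, was exceeded by 28 of those 100 probes and by 108 of all 2010 probes. The median of that SD was 0.831 in the 100 probes and 0.477 over all probes. With this scaling the high share thus came with the smallest spread within tumours and with a large, though not the largest, spread between them.

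The place at the top depended on the scaling and on thinning. Scaled by the upper quartile, the share was 96.5% and ranked 2, by library size alone it was 88.3% and ranked 51, and with every region thinned to 17711 counts it was 83.8% and ranked 19. Within array 1, in the 10 tumours with 2 regions there, the share was 95.5% and ranked 3. Within array 2 it was 93.5% and ranked 2. Without tumour 404 it was 95.5% and ranked 3, while the SD within tumours, 0.173, was still the lowest of all probes. Counted from the lowest, the SD within tumours ranked 1 by the upper quartile too, but 71 by library size alone (0.306), 14 after thinning (0.323), and 122 and 45 within arrays 1 and 2.

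Tumour 404 shows what the scaling does to the order. As a plain share of the total count, its regions held 0.472% and 0.204% on array 1 and 0.470% and 0.185% on array 2, with exact 95% binomial intervals of 0.456% to 0.490%, 0.191% to 0.218%, 0.447% to 0.494% and 0.156% to 0.219%; the intervals cover counting error only. The 10 highest probes of these regions took 56.7%, 80.1%, 59.2% and 81.7% of all counts. The regions with the larger share in the highest probes were those with the smaller share of RTS0112944. On library size alone, tumour 309 was the highest at 12.10 and tumour 404 ranked 3 at 11.57, and Spearman's rho of the order with the TMM order was 0.801.

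The ratio of RTS0112944 to the median probe of the same region needs no library total. Taken as the median over a tumour's regions, it ran from 3.63 in tumour 901 to 68.1 in tumour 404, with a median of 9.46 over tumours. The order by this ratio had a rho of 0.999 with the TMM order. The rho was 0.991 with upper quartile scaling, 0.976 after thinning and 0.835 for the order by percentile among probes. By percentile among the 2010 probes of a region, also as a median over each tumour's regions, the probe lay between 92.9 and 99.2, with a median of 95.8. Its median rank in a tumour ran from 16.5 to 141.5. Probes differ in how well they capture their target, so the percentile does not rank transcripts.

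Each tumour was measured on both arrays, and the order held between them. Over 24 tumours, Pearson's r between arrays was 0.992 and Spearman's rho 0.989, given as a description since closeness between regions chose the probe. The level on array 2 minus that on array 1 averaged 0.115 ± 0.123 (SD, n = 24), was positive in 20 of 24 tumours, and ran from -0.134 to 0.384, the latter in tumour 702. In edgeR's quasi-likelihood test with the tumour as a block, the probe rose on array 2 by 0.15 ± 0.033 (SE) log2 units, with an adjusted p of 0.00199. Of all probes, 8.76% passed this test, 154 higher (7.66%) and 22 lower (1.09%) on array 2, so the probe was among a minority that mostly ran in its direction. The choice of the probe left out the mean difference between arrays but favoured a small error, which makes a pass easier. The call did not hold when scaled by the upper quartile (0.08, adjusted p = 0.161 by edgeR) or by library size alone (0.06, adjusted p = 0.265), where the level was higher on array 2 in 17 and 16 of 24 tumours.

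**Figure D2:**
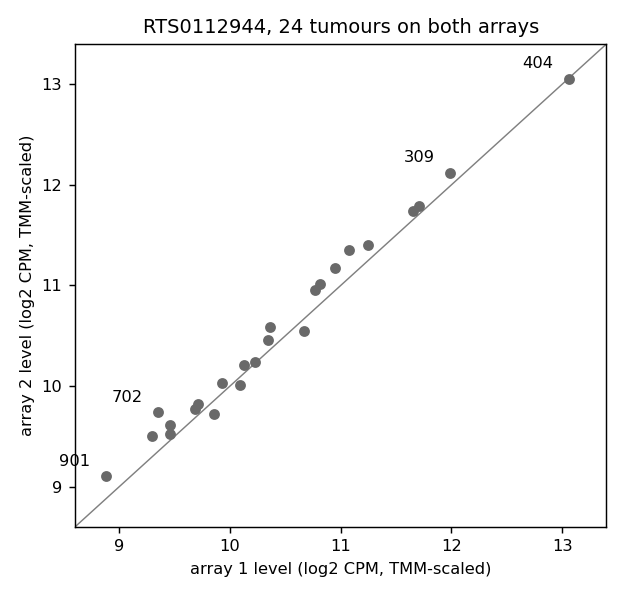
Level of RTS0112944 on array 2 against array 1 for 24 tumours, in log2 CPM after TMM scaling, each point a tumour and the line equality. The points follow the line, 20 of 24 lie above it, and tumour 702 lies farthest from it with a difference of 0.384.

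In the control tissues the probe was high in kidney and lower in spleen and liver. The 4 kidney regions read 11.85, 11.47, 11.88 and 11.64, a mean of 11.71 ± 0.20 (SD, n = 4 regions). The spleen regions read 9.30, 9.45, 9.33 and 9.48, a mean of 9.39 ± 0.09 (SD, n = 4 regions). The liver regions read 9.31, 9.61, 9.35 and 9.50, a mean of 9.44 ± 0.14 (SD, n = 4 regions). Kidney lay above spleen by 2.32 and above liver by 2.27 with no overlap of regions, and spleen and liver overlapped and differed by 0.052.

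Set against these regions, 20 tumours lay below every kidney region and 2 above all of them, tumours 404 and 309. By contrast, 22 tumours lay above every spleen region and 19 above every liver region, and 1, tumour 901, lay below all of both. The ratio to the median probe gave 20 below and 2 above for kidney, 20 above and 1 below for spleen, and 19 above and 1 below for liver. The scaling moved these counts: with library size alone all 24 tumours lay below every kidney region, 10 were above and 11 below every spleen region, and 13 were above and 10 below every liver region. With upper quartile scaling 1 was above and 23 below kidney, 19 above and 2 below spleen, and 12 above and 7 below liver.

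In edgeR's test against the tissues the probe did not pass, and the choice of the probe and the design leave that test little power. The probe was chosen for a large spread between tumours, and that spread is the error of the test. The log2 fold change of tumours over kidney was -0.81 ± 0.98 (SE), with an adjusted p of 0.736. Over spleen it was 1.51 ± 1.24 (SE), with an adjusted p of 0.616, and over liver 1.45 ± 1.24 (SE), with an adjusted p of 0.422. In the same fit 5.12% of probes passed against kidney (4 higher in tumours, 0.199%, and 99 lower, 4.93%), 2.39% against spleen (0 higher and 48 lower) and 5.02% against liver (12 higher, 0.597%, and 89 lower, 4.43%). Each tissue entered as 1 summed sample that was assumed to vary like the tumours, so the errors are wide, and the differences of level above stand as values. The fold changes moved with the scaling, to -1.29 (kidney), 1.04 (spleen) and 0.66 (liver) by the upper quartile and to -1.80, 0.28 and 0.41 by library size alone. Without tumour 404 the fold changes with TMM were -1.07 (kidney), 1.25 (spleen) and 1.19 (liver). The fit works on summed counts, so its values need not equal the differences between the mean log2 levels above.

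Other probes followed RTS0112944 over the tumours, and others ran against it. Pearson's r over 24 tumours had a median of -0.104 over the other 2009 probes, with quartiles at -0.416 and 0.346. It was 0.7 or more in 145 probes, 0.9 or more in 7, and -0.7 or less in 69. These correlations are a description over tumours whose levels share a library and its depth. Without tumour 404 the numbers were 185, 9 and 59, and 125 of the 145 probes were still at 0.7 or more, so most of the likeness did not rest on the highest tumour. The numbers at 0.7 or more and at -0.7 or less were 54 and 237 by the upper quartile, 87 and 0 by library size alone, and 25 and 9 with every region thinned to the same total.

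RTS0113134 had the highest r. It ran from 8.47 in tumour 204 to 11.55 in tumour 404, with 10.77 in 309, 11.19 in 2203 and 8.76 in 901, and its r was 0.934 with tumour 404 and 0.915 without. Its slope, the change in its level for each unit of RTS0112944, was 0.79 ± 0.076 (SE) by edgeR's quasi-likelihood test (adjusted p = 4.3e-08). The SD of RTS0113134 over tumours was 0.78, below the 0.99 of RTS0112944. RTS0111924, the probe with the steepest slope among the 8 most alike, ran from 9.05 in tumour 214 to 12.36 in tumour 404, with r of 0.911 and 0.902 without that tumour and a slope of 1.02 ± 0.095 (SE).

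The next by r were RTS0113714 at 0.926 (0.906 without tumour 404), RTS0113758 at 0.916 (0.908) and RTS0113131 at 0.912 (0.926). Below RTS0111924 came RTS0113126 at 0.910 (0.879), RTS0113443 at 0.902 (0.904) and RTS0113884 at 0.899 (0.867). The slopes of these 8 probes lay between 0.61 and 1.02 and all passed the test under each scaling. All 8, RTS0113134 among them, were chosen by r over the same tumours. Their passing was thus nearly fixed in advance and is no further support. They were also alike among themselves: their 28 pairwise correlations over tumours ran from 0.793 to 0.936, with a median of 0.887. No gene is known for them here, so nothing can be said of what they share in function.

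**Figure D3:**
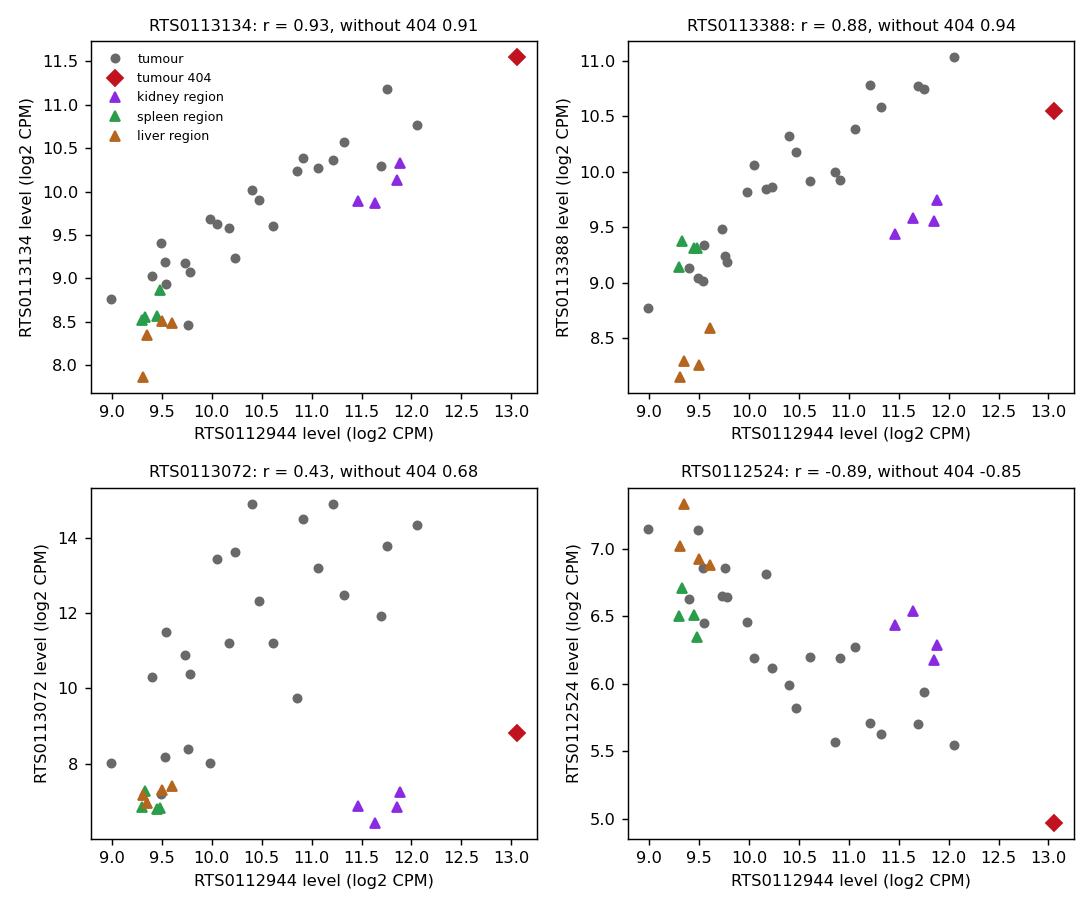
Level of named probes against the level of RTS0112944, both in log2 CPM after TMM scaling; circles are 24 tumours, the red diamond tumour 404, and triangles regions of kidney, spleen and liver. Titles give Pearson's r over tumours with and without tumour 404, such as 0.93 and 0.91 for RTS0113134.

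Leaving out tumour 404 brought other probes to the front. RTS0113388 went from 0.885 to 0.944, the highest r without that tumour, RTS0113756 from 0.818 to 0.919 and RTS0113358 from 0.867 to 0.902, and RTS0112285 held 0.898 in both. For RTS0113756 tumour 404 read 9.45, while tumour 309 read 11.35 and tumours 2203 and 1801 read 10.39 and 10.32. Tumour 404 thus lay below these 3 tumours for that probe and above them for RTS0113134. Of the 8 probes most alike over all tumours, 5 were among the 8 most alike without tumour 404, and of the first 50, 27 were.

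Differences between regions of a tumour leave out what sets whole tumours apart. In the 20 pairs of regions of 1 tumour on 1 array, differences of other probes had a median r of 0.066 with that of RTS0112944, and 54 probes reached 0.7. RTS0113758 (0.869), RTS0112285 (0.857), RTS0113714 (0.787), RTS0111924 (0.769), RTS0113134 (0.716) and RTS0113388 (0.703) were among these 54. Below them came RTS0113131 at 0.657, RTS0113756 at 0.605 and RTS0113358 at 0.589. For RTS0113443 the r within pairs was 0.460, for RTS0113126 0.414 and for RTS0113884 0.181. Likeness over tumours thus came with likeness inside tumours to a degree that varied among these probes. The widest gaps of RTS0112944 were in tumours 702 (0.637 and 0.654) and 2201 (0.538 and 0.629), and in tumour 404 on array 2 (0.589). The r within pairs therefore rests mostly on these few pairs.

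Reading RTS0112944 on 1 array and the other probe on the other array leaves out a shared library. With RTS0112944 from array 1 and the others from array 2, 97 probes had an r of 0.7 or more, and with the arrays exchanged 134 did. Of the 145 probes, 89 passed in both. Within array 1 the count was 127 and within array 2 it was 107, so the counts across arrays were of the size of those within them.

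The slope test over all 2009 other probes called 467 probes rising with RTS0112944 (23.2%) and 474 falling (23.6%), so 46.8% of probes passed, and a single call is common here. Without tumour 404 the counts were 489 and 482, with 416 of the rising and 412 of the falling probes shared. The balance changed with the scaling. The median slope over all probes was -0.02 with TMM, -0.29 by the upper quartile and 0.09 by library size alone. Upper quartile scaling called 196 rising and 1033 falling, and library size alone 256 rising and 2 falling. Under all 3 scalings 173 of the 467 rising probes passed, and 2 of the 474 falling probes did. No call made with TMM was turned to the opposite direction by either of the others. The falling calls are reported only relative to the scaling.

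**Figure D4:**
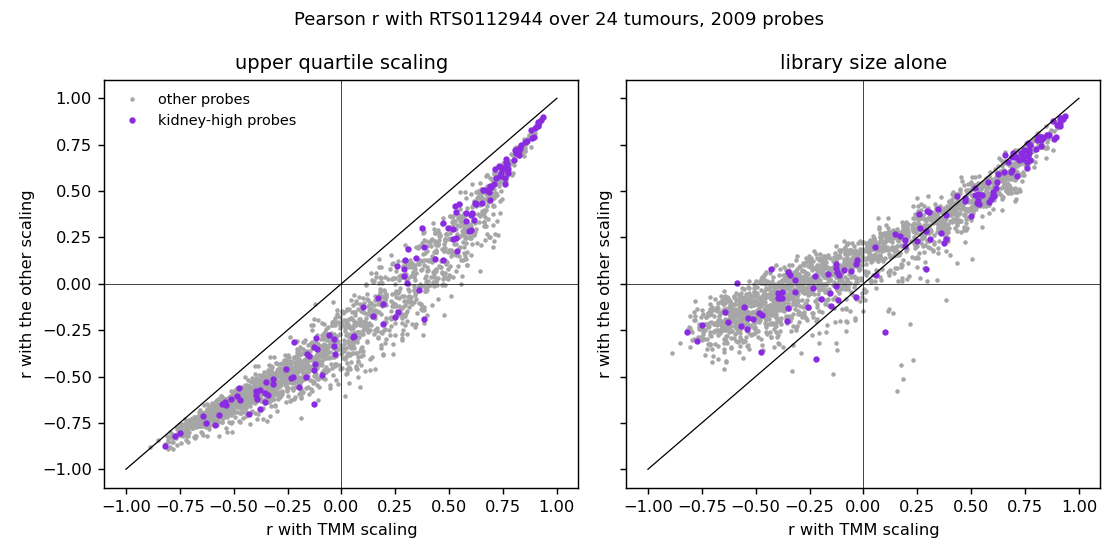
Pearson's r of 2009 probes with RTS0112944 over 24 tumours, with TMM scaling on the horizontal axis and upper quartile scaling or library size alone on the vertical axis; purple points are kidney-high probes and the diagonal is equality. Low correlations under TMM move up toward 0 with library size alone, where none is at -0.7 or less, and most points move down with upper quartile scaling.

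The 4 probes with the lowest r were RTS0112524 (-0.889), RTS0112331 (-0.849), RTS0113175 (-0.819) and RTS0113334 (-0.819), and without tumour 404 they were at -0.853, -0.820, -0.729 and -0.757. RTS0112524 ran from 4.97 in tumour 404 to 7.15 in tumour 901, the reverse of RTS0112944 at both ends, with a slope of -0.40 ± 0.067 (SE; adjusted p = 4.43e-05 by edgeR). These 4 probes too were chosen by r over the same tumours, so their passing with TMM is no further support. All 4 calls were lost with library size alone, where edgeR's adjusted p was 0.324, 0.324, 0.556 and 0.373 in that order. The call of RTS0113334 was also lost on array 2 alone (-0.19, adjusted p = 0.126 by edgeR) and for counts of array 2 against levels of array 1 (-0.20, adjusted p = 0.115). These are dim probes. The 503 dimmest probes had a mean level of 6.28 over tumours, 5.87 in tumour 404 and 6.68 in tumour 901, so the dimmest probes as a whole ran against RTS0112944. The part of this in the low correlations was not tested.

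The level of a probe went with its direction. With the probes cut into 4 classes of like number by mean level, 1 of 503 rose and 337 fell in the dimmest class. In the next class 19 of 502 rose and 129 fell, in the one above 150 of 502 rose and 8 fell, and in the brightest 297 of 502 rose and 0 fell. Rising calls are therefore read against probes of like level. With the log2 total count as a covariate, an alternative added after the data had been seen, 322 rose and 215 fell, and without the 17 tumour regions of lowest total 401 rose and 396 fell.

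Because RTS0112944 was high in kidney, the probes that kidney, spleen or liver regions hold at a higher level than the other tissues were set beside it. A probe entered a list where each of the 4 regions of a tissue was above every region of the other tissues and the mean was higher by at least 1 log2 unit; tumours played no part. RTS0112944 is itself in the kidney-high list of 131 probes, where it has place 46 by size of the difference, and 130 others remain. Of these, 69 rose (53.1%) and 12 fell (9.23%) with RTS0112944 over tumours, and their median r was 0.41. Over all probes 23.2% rose and 23.6% fell, with a median r of -0.10. Of 99 spleen-high probes 21 rose (21.2%), about the share over all probes, and 6 fell (6.06%), with a median r of 0.06. Of 46 liver-high probes 1 rose (2.17%) and 17 fell (37.0%), with a median r of -0.32.

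The lists were also counted within classes of level. In the brightest class, 59 of 68 kidney-high probes rose (86.8%), against 297 of all 502 probes there (59.2%), 19 of 59 spleen-high probes (32.2%) and 1 of 8 liver-high probes (12.5%). In the class below it 10 of 29 kidney-high probes rose (34.5%), near the 29.9% of all probes there, and in the next 0 of 14 rose, against 3.78%. In the dimmest class 0 of 19 rose and 11 fell (57.9%), near the 67.0% of all probes that fell there. Of 22 liver-high probes in that class 14 fell (63.6%), and in the class above it 3 of 11 fell (27.3%). These shares were near the 67.0% and 25.7% of all probes there, so the falling share of liver-high probes was that of probes of like level. The kidney-high share of rising probes thus stood above that of all probes in the brightest class and near it in the others. With library size alone 49 of the 130 rose and 0 fell, against 256 and 2 of all 2009 probes, and with upper quartile scaling 49 rose and 39 fell, against 196 and 1033. Without tumour 404 the counts were 65 and 16, without the 17 regions of lowest total 65 and 11, and with the total count as a covariate 56 and 7.

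**Figure D5:**
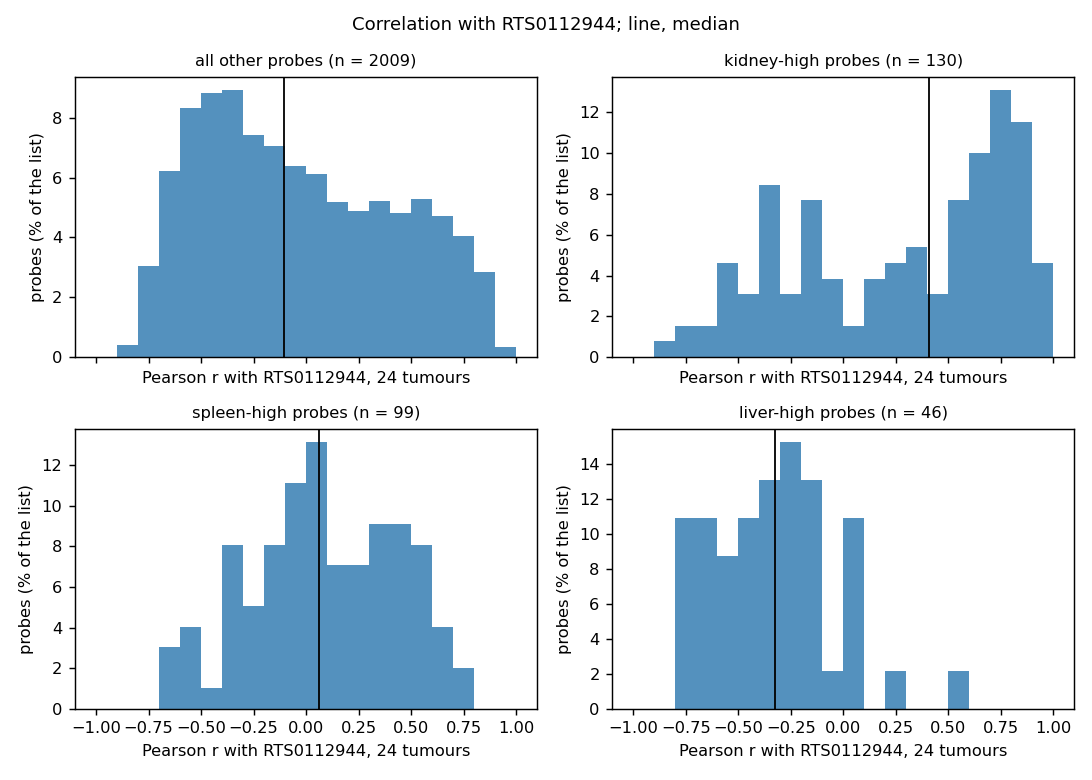
Distribution of Pearson's r with RTS0112944 over 24 tumours, as a percent of the probes in each list, for all 2009 probes and the 130 kidney-high, 99 spleen-high and 46 liver-high probes; the line is the median. The medians are -0.10, 0.41, 0.06 and -0.32.

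Like RTS0112944, the probes most alike to it read highest in kidney, while their order of spleen and liver varied. All 8 of those with the highest r were higher in kidney than in spleen and liver by mean level, and 6 of them are in the kidney-high list. RTS0113134 read 10.06 in kidney, 8.63 in spleen and 8.30 in liver, RTS0113714 read 11.54, 9.65 and 9.11, and RTS0111924 read 11.03, 8.76 and 7.55. In RTS0113758 liver read above spleen, with 9.36 against 8.47. The smallest gap was in RTS0113884, with 7.83, 7.70 and 7.32, and its kidney and spleen regions overlapped. Of the 145 probes with an r of 0.7 or more, kidney was the highest tissue in 110 (75.9%), spleen in 30 and liver in 5, against 586 of 2009 (29.2%), 635 and 788 over all probes. Probes of like level lie nearer: in the brightest class kidney was the highest in 92 of the 119 such probes and in 245 of all 502, and in the class below in 18 of 26 and in 186 of 502. Of the 69 probes at -0.7 or less, liver was the highest in 54, spleen in 8 and kidney in 7. RTS0113334, named above for its low r, is itself in the kidney-high list, with 8.09 in kidney, 6.80 in spleen and 7.08 in liver. Liver was also the tissue where the 503 dimmest probes read highest, at 7.08 against 6.80 in kidney and 6.72 in spleen.

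Over the 24 tumours the level of RTS0112944 was compared with 5 measures of the tumours, with p-values from 100000 permutations and adjusted over the 5. With the mean level of the other kidney-high probes, r was 0.883 and rho 0.930 (permutation p = 1e-05, the smallest that 100000 permutations allow; adjusted p = 5e-05). Of these 130 probes 68 lie in the brightest class, where the median r was 0.485 over all probes and 0.699 over kidney-high ones. The mean level of other probes of like level was not compared. Leaving out the 2 tumours farthest from the median of that measure gave an r of 0.862, array 1 alone 0.912 and array 2 alone 0.829. Under the other scalings it was lower but passed, with 0.580 by the upper quartile (adjusted permutation p = 0.00712) and 0.546 by library size alone (adjusted permutation p = 0.0156). After thinning every region to the same total count it was 0.593, with the share of that total in the highest probes left as it was.

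With the liver-high probes r was -0.740 and rho -0.757 (permutation p = 4e-05, adjusted p = 0.0001), with -0.676 when the 2 farthest tumours were left out, and -0.619 and -0.740 within the arrays. It was -0.831 by the upper quartile (adjusted permutation p = 5e-05) and -0.701 after thinning (adjusted permutation p = 0.00035). With library size alone it was -0.096 (adjusted permutation p = 0.655). Of the 46 liver-high probes 22 lie in the dimmest class, where the median r was -0.50 over all probes and -0.49 over liver-high ones. Other dim probes were not compared as a set, so this relation is not read as particular to liver-high probes. With the spleen-high probes r was 0.336 and rho 0.340 (permutation p = 0.106, adjusted p = 0.133). The relation to kidney-high probes thus kept its sign and passed in all 8 settings tried. That to liver-high probes kept its sign in all 8 and passed in all but library size alone. The relation to spleen-high probes changed sign with upper quartile scaling and after thinning.

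Depth moved with the level too. With the log2 total count r was 0.512 and rho 0.600 (permutation p = 0.011, adjusted p = 0.0183), 0.499 without the 2 farthest tumours, and 0.297 with library size alone (adjusted permutation p = 0.199). Tumours with more counts therefore tended to read higher for RTS0112944 under TMM scaling, and the part of depth in the levels was not tested beyond the thinned levels and the covariate above. With the share of counts in the 10 highest probes r was 0.017 (permutation p = 0.935, adjusted p = 0.935) and -0.043 by rho, and -0.543 with library size alone (adjusted permutation p = 0.0156).

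A few probes that earlier results of these data had singled out stood apart from RTS0112944. RTS0112268, RTS0112269 and RTS0113569, far higher in tumours than in kidney, spleen and liver, had an r of 0.176, 0.232 and 0.184, and of -0.020, 0.051 and -0.123 without tumour 404. RTS0112273, the probe with the next highest variance share, had -0.122 and -0.299. RTS0113778 had 0.044 and 0.146, and RTS0113204 had 0.082 and 0.281. None of these 6 passed the slope test, and the sign of the slope of each changed in at least 1 setting or with 1 tumour left out.

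RTS0113072 and RTS0112902 passed narrowly. RTS0113072 had an r of 0.426, which was 0.678 without tumour 404, where it read 8.81 against 14.35 in tumour 309, and a slope of 1.32 ± 0.54 (SE; adjusted p = 0.044 by edgeR). Its adjusted p went above the threshold when any of 13 tumours was left out, the highest being 0.0927 without tumour 901, and it was 0.121 by the upper quartile, 0.0566 on array 2 alone, 0.0735 for counts of array 2 against levels of array 1, 0.115 without the 17 shallow regions and 0.0924 with the total count as a covariate. RTS0112902 had an r of 0.432 (0.335 without tumour 404) and a slope of 0.38 ± 0.14 (SE; adjusted p = 0.0241 by edgeR), which did not pass without tumour 404 (0.32, adjusted p = 0.124) or without tumour 2203 (0.31, adjusted p = 0.065). That call was also lost by the upper quartile (0.21, adjusted p = 0.265), by library size alone (0.27, adjusted p = 0.355), without the 17 shallow regions (adjusted p = 0.0516) and with the total count as a covariate (adjusted p = 0.0937), all by edgeR. Neither was near the 8 most alike, whose adjusted p was below the threshold with each tumour left out in turn, as their choice by r made likely.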

How the data were processed

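The deposited values are counts per probe, per the file headers, which name the GeoMx NGS pipeline, version 2.3.4. No normalization or genome build is given in the sources used here. The probe, the named probes and the lists were chosen with earlier results of these data known. The named probes are the 8 with the highest and the 4 with the lowest r over 24 tumours, the 4 next by r without tumour 404, and 8 that earlier results had singled out.

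Counts were scaled by TMM and tested in edgeR (version 4.0.16, under R 4.3.3) by quasi-likelihood, after the filterByExpr filter, with Benjamini-Hochberg adjustment over all probes and a threshold of 0.05. Regions were summed per tumour or tissue, or per tumour and array with the tumour as a block. In the slope test the mean log2 CPM of RTS0112944 was the only term. DESeq2 1.42.0 was an alternative, and the fits were tested on simulated data. Both arrays carry the same tumour numbers, so the labels pair them. Permutations were two-sided, with SciPy 1.17.1 in Python 3.11.15. Where labels do not separate animals, p-values measure the spread between these samples.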

Additional observations from a re-analysis of the deposited data

How the results depend on the processing

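The array difference of RTS0112944 was 0.15 (adjusted p = 0.997, edgeR) with no replicate block, 0.081 by the upper quartile, 0.064 by library size alone and 0.15 (adjusted p = 0.0844) in the 10 tumours with 2 regions on each array. With each tumour left out it ran from 0.14 to 0.16 and passed each time, with the small error that the choice of the probe favoured. Against the tissues it ran with a tumour left out from -1.07 to -0.76 (kidney), 1.25 to 1.56 (spleen) and 1.19 to 1.50 (liver), and with a tissue region left out from -0.95 to -0.73, 1.47 to 1.55 and 1.38 to 1.53. Rising probes numbered 196 by the upper quartile, 256 by library size alone and 427 to 489 with a tumour left out. Falling probes numbered 1033, 2 and 417 to 491 in the same order, 300 on array 2 alone, 284 for counts of array 2 against levels of array 1, and 215 with total count as a covariate. Probes with r of 0.7 or more numbered 54 by the upper quartile and 87 by library size alone. For the total count r was 0.297 by library size alone, 0.41 thinned and 0.44 on array 2. For the share of the 10 highest probes it was -0.54 by library size alone and -0.21 without tumour 404. For spleen-high probes it was -0.31 with upper quartile scaling and -0.17 thinned, and for liver-high probes -0.096 by library size alone. By library size alone the slopes of RTS0112268, RTS0112269, RTS0113569 and RTS0113778 were -0.54, -0.42, -0.35 and 1.29. With total count as a covariate the first 3 of these were -0.26, -0.19 and -0.0688, and without tumour 404 RTS0112268 was at -0.072 and RTS0113569 at -0.012. RTS0113204 was at -0.15 with upper quartile scaling. With a tumour left out RTS0112268 ran from -0.072 to 0.37, RTS0113569 from -0.012 to 0.41, RTS0112273 from -0.84 to 0.021 and RTS0113204 from -0.0079 to 0.28. The cause of these changes was not tested. The covariate, the thinned relations and the fits without 17 shallow regions were chosen after seeing the data. Depth limits the dim probes most, since the median probe had 2 counts in the shallowest tumour region.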
